A study of Mus musculus with 42 samples.

Results

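Muscle-like medullary genes are the 9 genes Myog, Myod1, Chrna1, Ckm, Actc1, Acta1, Des, Myl1 and Tnnt3, which skeletal or cardiac muscle is known for and which were followed here in sorted thymic epithelial cells (TEC) of the mouse. They were listed by name, and matching each through its Ensembl identifier to a count table of 53465 genes made no use of its level. The list was made with earlier results of these data known, so it is not a choice blind to them. All 9 had counts, and all 9 were among the 23040 genes kept by a filter on low counts. A gene seen in only 1 subset can pass that filter through it, as Myod1 did, so that passing is no result. The table held 42 libraries, each made from 200 cells sorted by surface markers into 3 subsets: cTEC of the cortex (Epcam+ CD45- UEA- Ly51+), and mTEC of the medulla (Epcam+ CD45- UEA+ Ly51lo) that were either MHCIIlo, called MHCII-low mTEC, or MHCIIhi, called MHCII-high mTEC, by their surface MHC class II. Per subset there were 7 libraries labelled KO, 5 labelled Control and 2 of a further control genotype, Ski flox Control. KO stands for a deletion of Ski, a transcriptional corepressor, restricted to TEC per the description of the series. No Cre line, strain, age or animal is named in the sources used here, so libraries could not be tied to animals and p-values measure only the spread between libraries.

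Medullary TEC display self-antigens of many tissues to developing T cells, so that self-reactive T cells can be removed or diverted. Part of this comes from Aire, a regulator that switches on many tissue-specific genes in single cells, and part from small groups of medullary cells that take on the look of another cell type, muscle among them. The alpha subunit of the muscle acetylcholine receptor, encoded by Chrna1, is the best known of these antigens, because antibodies against the receptor cause myasthenia gravis, a disease often found together with changes of the thymus. Myogenin (Myog) and MyoD (Myod1) are basic helix-loop-helix transcription factors that drive muscle differentiation by binding E-boxes, and serum response factor acts on actin genes through CArG boxes.

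The 9 genes lie on 4 chromosomes of the GRCm38 build in the GENCODE M21 annotation. Myog spans chr1:134289989-134292548 on the plus strand, Myod1 chr7:46376474-46379099 (plus), Chrna1 chr2:73563215-73580338 (minus), Ckm chr7:19404776-19422841 (plus), Actc1 chr2:114047282-114053548 (minus), Acta1 chr8:123891769-123894751 (minus), Des chr1:75360329-75368579 (plus), Myl1 chr1:66924295-66945404 (minus) and Tnnt3 chr7:142498836-142516009 (plus). The counts are those of the submitters, who name no annotation release, so that they cover these same exons is assumed. The chemistry does not mark the strand, so reads of Ckm and Des cannot be told apart from those of the antisense genes A930016O22Rik and Gm15179, which overlap their exons. Of the 50-base windows in their exons, 242 of 2067 in Myl1 also occur in the pseudogene Mylf-ps, 31 of 1534 in Acta1 in Actb or actin pseudogenes, and 131 of 4337 in Chrna1 occur in other genes, Furin, Tra2b and Ipo7 among them. Myog, Myod1, Actc1 and Tnnt3 share 0 windows with another gene.

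The promoters of 5 members are printed to show which of them hold E-boxes, CArG boxes or both, and Myog, Chrna1 and Acta1 among them differed between subsets below. RefSeq (GRCm38.p6) listed a start for 7 of the 9, and for Myod1 and Tnnt3 no promoter is shown. The windows of Ckm and Myl1, each with 1 E-box of the muscle form, overlap annotated exons by 69 and 103 bases and are not printed. Those of Myog and Actc1 overlap them by 15 and 12 bases and are printed. Each run below is the 250 bases before that start, read 5' to 3' on the gene's strand, with E-boxes (CANNTG, of which CAGCTG is here called the muscle form) and CArG boxes in capitals. The windows are chr1:134289754-134290003 (plus) for Myog, chr2:73580339-73580588 (minus) for Chrna1, chr2:114052876-114053125 (minus) for Actc1, chr8:123894776-123895025 (minus) for Acta1 and chr1:75360042-75360291 (plus) for Des.
Myog: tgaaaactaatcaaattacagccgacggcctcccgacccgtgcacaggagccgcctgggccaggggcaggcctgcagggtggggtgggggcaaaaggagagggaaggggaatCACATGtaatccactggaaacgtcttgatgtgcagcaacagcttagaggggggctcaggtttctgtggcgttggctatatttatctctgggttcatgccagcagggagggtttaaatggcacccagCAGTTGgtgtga
Chrna1: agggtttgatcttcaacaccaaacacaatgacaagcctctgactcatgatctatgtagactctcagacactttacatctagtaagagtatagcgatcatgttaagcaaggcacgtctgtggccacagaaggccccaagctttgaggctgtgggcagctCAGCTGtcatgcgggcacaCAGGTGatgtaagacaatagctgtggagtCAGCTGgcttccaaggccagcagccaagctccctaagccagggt
Actc1: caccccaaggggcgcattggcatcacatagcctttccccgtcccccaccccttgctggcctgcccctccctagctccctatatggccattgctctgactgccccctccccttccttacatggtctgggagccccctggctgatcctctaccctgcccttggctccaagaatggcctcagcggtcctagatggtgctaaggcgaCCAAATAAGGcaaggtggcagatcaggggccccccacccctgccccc
Acta1: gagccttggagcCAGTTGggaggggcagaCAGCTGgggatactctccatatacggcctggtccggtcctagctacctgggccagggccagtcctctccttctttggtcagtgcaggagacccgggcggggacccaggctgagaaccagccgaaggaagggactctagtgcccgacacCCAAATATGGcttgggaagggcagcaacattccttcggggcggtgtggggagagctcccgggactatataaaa
Des: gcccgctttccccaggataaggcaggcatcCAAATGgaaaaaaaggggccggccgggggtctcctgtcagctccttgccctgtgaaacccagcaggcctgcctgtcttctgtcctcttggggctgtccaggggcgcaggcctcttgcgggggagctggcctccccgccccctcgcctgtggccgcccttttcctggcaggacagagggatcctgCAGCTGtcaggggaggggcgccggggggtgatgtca
Counted back from the start, the E-boxes of Myog begin 138 and 12 bases upstream, the latter within the bases annotated as exon. Those of Chrna1 begin 92, 73 and 44 bases upstream, the first and the last of them of the muscle form. Actc1 held no E-box and 1 CArG box 47 bases upstream, and Acta1 held E-boxes at 238 and 221 bases and a CArG box at 73 bases. Des held E-boxes at 220 and 36 bases. An E-box occurred in 66.22% of 32851 promoter windows of this length, the muscle form in 13% and a CArG box in 1.47%, so an E-box alone sets none of these promoters apart. A match describes letters and not a site in use.

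Of the 42 libraries, 2 were left out of the comparisons for having under 100000 counts, replicate 2 of Control in MHCII-low mTEC (82 counts) and replicate 2 of Control in MHCII-high mTEC (41828 counts), and neither held a count of any member. The 40 others held 3217251 to 7068077 counts, with n = 4 Control libraries in each medullary subset. Values are given as CPM, counts scaled per 1000000 of the TMM-adjusted library size. By library number 19 of the 40 are called early here and 21 late (early are replicates 1 to 3 of Control and 1 to 4 labelled KO), a split that no label names and whose boundary came from earlier results of these data. Some markers separated cTEC from MHCII-high mTEC labelled KO. Psmb11, a cortical proteasome subunit, averaged 546 ± 350 CPM (SD, n = 7) in cTEC and 6.35 ± 12 CPM in MHCII-high mTEC, and the claudin gene Cldn3 4.46 ± 5.78 and 281 ± 208. Without cTEC replicate 3 labelled KO, 4 of 8 cTEC markers were lower in MHCII-high mTEC than in cTEC. Higher were 3 of 5 mTEC markers, the list of Cldn3, and 2 of 8 MHCII-high markers, whose median log2 fold change was 0.42. With all 40 libraries in, 12.9% of all genes were higher and 1.82% lower in that comparison. The share of all genes without replicate 3 is not given here. A check by markers of the division between MHCII-low and MHCII-high mTEC is not given here. Ski itself averaged 16.3 ± 16.4 CPM in cTEC labelled KO (SD, n = 7), beside 16.7 ± 8.96 CPM in its Control (n = 5). MHCII-low mTEC had 6.51 ± 5.94 CPM beside 24.6 ± 15.1 CPM, and MHCII-high mTEC 6.14 ± 6.47 CPM beside 13.3 ± 6.55 CPM (n = 7 beside n = 4). Ski was called in none of the 3 subsets (log2 fold changes of -0.03, -1.92 with adjusted p = 0.796, and -1.12 with adjusted p = 1.0, edgeR), so the labels are not borne out by its counts in cTEC. The deleted exons are not named in these sources, and reads from the rest of the gene would not show a deletion.

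One library stands apart for this gene set. Replicate 3 of cTEC labelled KO held Actc1 at 1195 CPM, Des at 240 CPM, Myl1 at 147 CPM and Ckm at 35.4 CPM, each above all 13 other cTEC libraries, and Myog, Myod1 and Tnnt3 at 0. For Actc1, Myl1 and Ckm these were the highest values of all 40 libraries, so the name medullary does not hold for them there. In the same library 6 of 8 cardiac muscle genes lay above all 13 others, with Myh6, the atrial myosin heavy chain, at 1758 CPM, Myl7, the atrial light chain, at 1689 CPM and Nppa, the atrial natriuretic peptide, at 277 CPM, while Hcn4 and Tbx5 were at 0. It also had the fewest genes detected of the 40 libraries, 11084 beside a cTEC median of 14436.5. The share of all genes for which it lay above the 13 others was not counted.

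Of the 9 genes, Myog and Chrna1 were higher in both medullary subsets than in cTEC, and Tnnt3 and Acta1 were higher in MHCII-high mTEC of the KO libraries. In edgeR the other 5 passed no comparison between subsets with all 40 libraries in, and 4 of these (Actc1, Des, Myl1 and Ckm) had their highest cTEC value in the replicate 3 just described. In bulk libraries, fewer cells of a type and less RNA per cell cannot be told apart. Among Control libraries 1 of 9 members, Myog, was higher in MHCII-low mTEC than in cTEC at an adjusted p under 0.05 (edgeR's quasi-likelihood test, Benjamini-Hochberg over the 23040 genes), where 0.703% of all genes tested were higher and 0.0694% lower. Again 1 of 9, Myog, was higher in MHCII-high mTEC than in cTEC, against 1.07% of all genes higher and 0.0434% lower. Among libraries labelled KO, Myog and Chrna1 were higher in MHCII-low mTEC, 2 of 9 against 5.19% of all genes higher and 0.49% lower, and Myog, Chrna1, Acta1 and Tnnt3 in MHCII-high mTEC, 4 of 9 against 12.9% of all genes higher and 1.82% lower. The median log2 fold change over the 9 in Control was 2.85 in MHCII-low and 4.29 in MHCII-high mTEC, beside 0.14 and 0.25 over all genes. In libraries labelled KO it was 0.0 and 5.08, beside 0.25 and 0.28, the 0.0 being the place of Myod1, which had no count in either group. Without cTEC replicate 3 it was 4.05 and 6.5. Placing the genes that a whole group lacked at the least fold that 3 counts over that group allow left all 4 medians as they were. The comparisons of 1 genotype share their cTEC libraries. With only the libraries of the 2 groups compared in the fit, its filter left 1 to 3 of the 9 members in the test. Myog passed in MHCII-low Control (adjusted p = 0.0292, edgeR) and was not tested in the other 3, while Chrna1 was tested in all 4 and lost both of its KO calls (adjusted p = 0.179 and 0.0509).

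**Figure D1:**
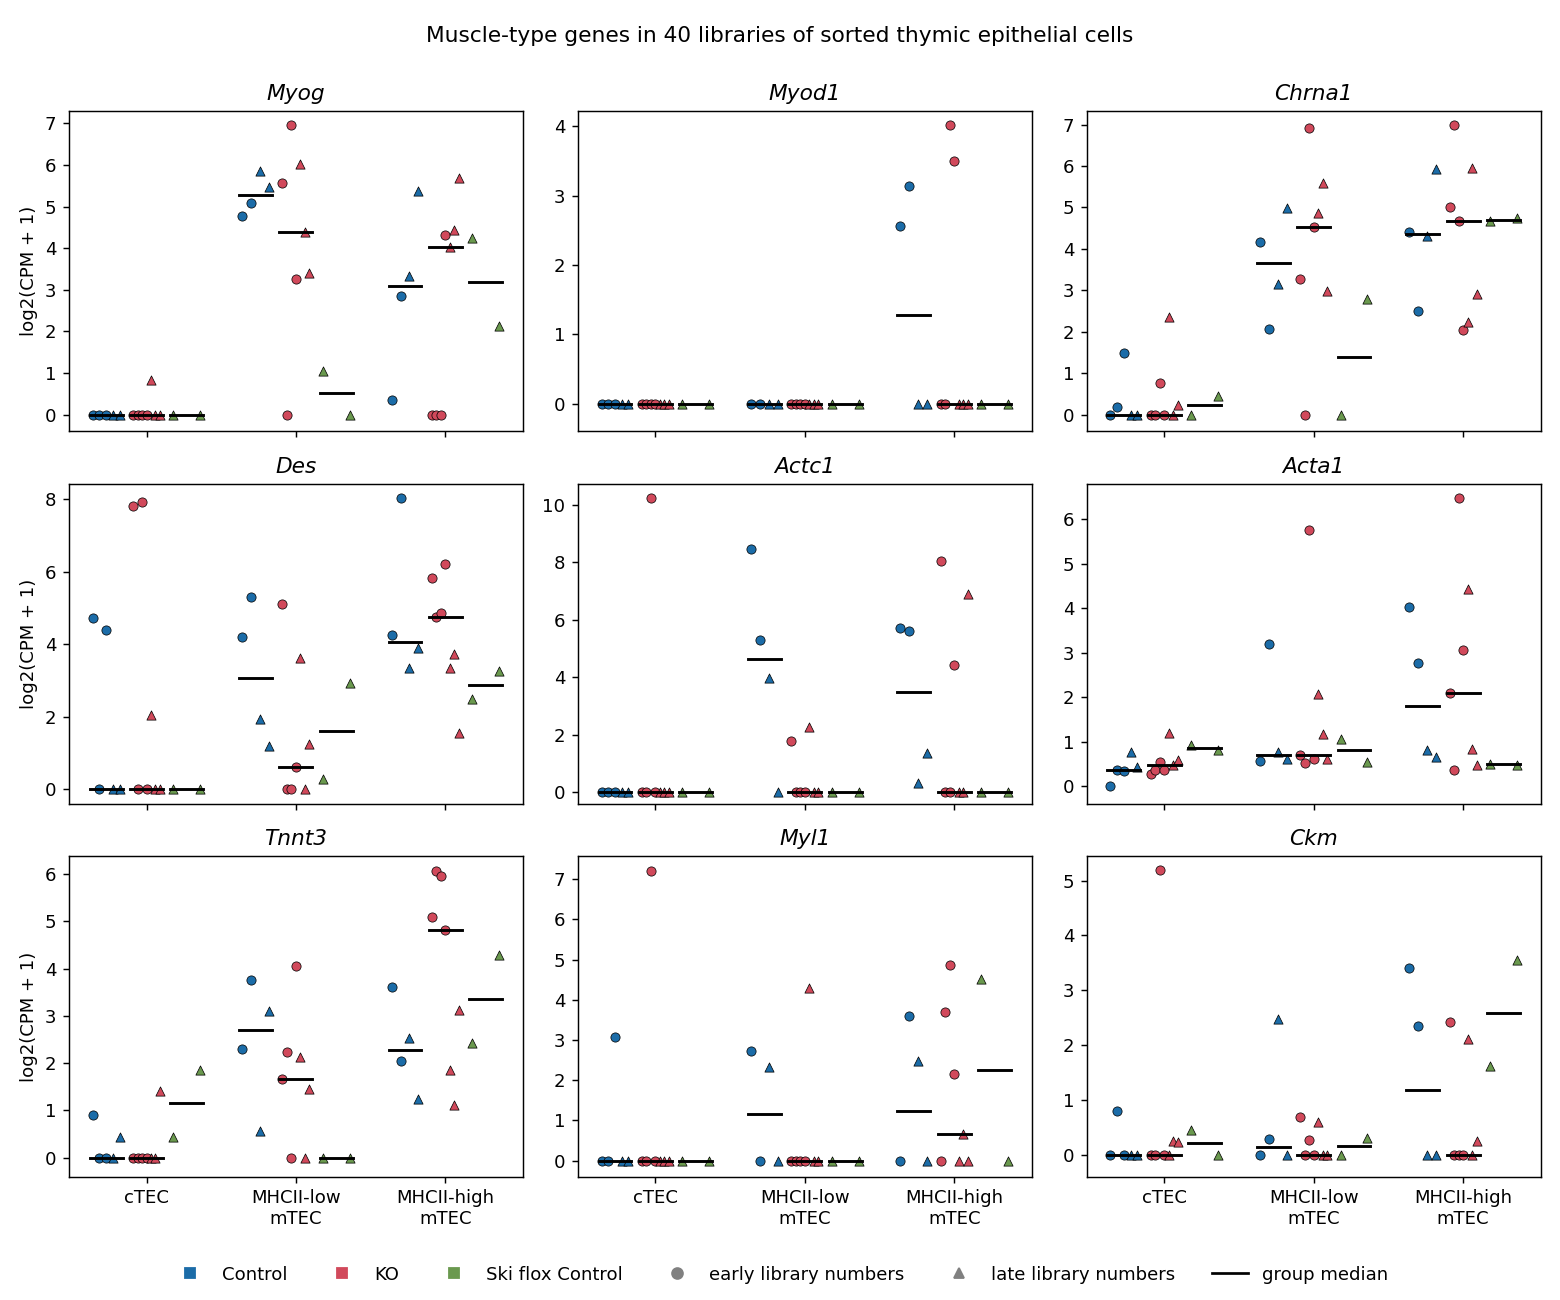
Level of each of the 9 genes in each of the 40 libraries, as log2(CPM + 1) on the y axis (CPM), by subset on the x axis, with colours for genotype, marker shapes for the early and late library numbers and a bar at each group's median. Myog is at 0 in 13 of 14 cTEC libraries and present in 21 of 26 medullary ones, while the highest point of Actc1 is a cTEC library, replicate 3 labelled KO, at 1195 CPM.

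Myog was found almost only in the medulla. In cTEC it was at 0 in 13 of 14 libraries, and replicate 5 labelled KO held 3 counts (0.78 CPM). The 4 Control libraries of MHCII-low mTEC held 26.5, 33.2, 57.0 and 43.2 CPM, and the 7 labelled KO ran from 0 to 123 CPM with a median of 20.1 CPM. All 4 Control libraries thus lay above every cTEC library, whereas 1 library labelled KO, replicate 2, had no count. In MHCII-high mTEC the Control libraries held 0.273 (1 count), 6.22, 9.09 and 40.3 CPM, and those labelled KO ran from 0 to 50.2 CPM with a median of 15.4 CPM and 3 libraries at 0. Against cTEC Control, where Myog had no count, the level in Control was at least 397-fold higher in MHCII-low mTEC (log2 fold change 10.61 ± 2.30 SE, adjusted p = 0.0227, edgeR) and at least 139-fold higher in MHCII-high mTEC (9.10 ± 2.18, adjusted p = 0.0354). A fitted log2 value against a group at 0 depends on the fit's prior count and is no bound. In libraries labelled KO the log2 fold changes were 8.28 ± 1.77 SE in MHCII-low (adjusted p = 0.00796, edgeR) and 6.91 ± 1.68 in MHCII-high mTEC (adjusted p = 0.0105).

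The calls of Myog in Control rest on few libraries. The MHCII-low call was lost when cTEC Control replicate 2, 4 or 5 was left out (adjusted p up to 0.0738, edgeR) and in the early set alone (10.2, adjusted p = 0.659). With 1 library left out the log2 fold change stayed between 10.4 and 10.77. The MHCII-high call was lost without any of the 5 cTEC Control replicates or without MHCII-high Control replicate 5 (7.68 to 9.52, adjusted p up to 0.0885), within the early set (6.99, adjusted p = 0.513) and within the late set (9.88, adjusted p = 0.0687). In libraries labelled KO both calls held without any 1 library, the log2 fold change running from 7.62 to 10.59 in MHCII-low and from 6.2 to 9.22 in MHCII-high mTEC. Within the late set they held as well (6.88 with adjusted p = 0.0347, and 6.8 with adjusted p = 0.0305, edgeR), and within the early set they did not (adjusted p = 0.216 and 0.191). Without its replicate 5, cTEC labelled KO had no Myog count, so fitted values then are no bounds.

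Myod1, which acts before myogenin in muscle precursors, was the rarest of the set. It had counts in 4 of 40 libraries, all of them MHCII-high mTEC: Control replicates 1 and 3 at 4.91 and 7.78 CPM (18 and 40 counts), and replicates 3 and 4 labelled KO at 15.2 and 10.3 CPM (57 and 60 counts). All 4 belong to the early set, and the other 36 libraries had 0. Against cTEC the level was at least 31.5-fold higher in Control and at least 42.02-fold higher in libraries labelled KO, and neither difference passed (adjusted p = 0.169 and 0.0558, edgeR). Of 26 medullary libraries 19 held at least 10 counts of Myog, 4 held as many of Myod1, and 2 held both. These were MHCII-high Control replicate 3 and replicate 4 labelled KO, the only 2 early MHCII-high libraries with at least 10 counts of Myog. Whether the 2 factors go together or apart was not tested.

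Chrna1 was the most widely found member of the medulla, with at least 10 counts in all 13 MHCII-high and 11 of 13 MHCII-low libraries. In cTEC it reached at most 4.16 CPM (replicate 5 labelled KO), and 8 of 14 libraries were at 0. The Control libraries of MHCII-low mTEC held 16.9, 3.16, 7.88 and 31.0 CPM, and the 7 labelled KO ran from 0 to 120 CPM with a median of 22.2 CPM. In MHCII-high mTEC Control held 20.2, 4.67, 18.9 and 60.2 CPM, and libraries labelled KO ran from 3.10 to 125 CPM with a median of 24.5 CPM. Every Control library of both medullary subsets lay above all 5 of cTEC Control, which ran from 0 to 1.79 CPM, yet these differences did not pass (5.11 ± 1.70 SE with adjusted p = 0.129, and 5.93 ± 1.76 with adjusted p = 0.0755, edgeR). In libraries labelled KO both did, at 5.53 ± 1.44 SE in MHCII-low (adjusted p = 0.0225, edgeR) and 5.66 ± 1.45 in MHCII-high mTEC (adjusted p = 0.0129). Both KO calls held without any 1 library (4.71 to 7.69, and 4.91 to 7.83) and neither held within the early set (adjusted p = 0.178 and 0.108, edgeR) or the late set (adjusted p = 0.251 and 0.194), in fits of fewer libraries.

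Tnnt3, fast skeletal troponin T, which ties the calcium switch of the thin filament to tropomyosin, was higher in MHCII-high mTEC than in cTEC of the KO libraries. There it held 33.1, 66.4, 61.1 and 27.04 CPM in replicates 1 to 4 and 2.64, 1.18 and 7.75 CPM in replicates 5 to 7. The 4 high values are the early set and the 3 low ones the late set. In cTEC labelled KO only replicate 7 had a count (1.67 CPM), which gave a log2 fold change of 6.69 ± 1.57 SE (adjusted p = 0.00788, edgeR). The call held without any 1 library (6.34 to 10.12). The fitted log2 fold change was 10.82 within the early set (adjusted p = 0.0497, edgeR) and 2.66 within the late set (adjusted p = 0.452). Within the early set, and without cTEC replicate 7, cTEC labelled KO had no count. Fitted values there are no bounds, so 10.82 beside 2.66 does not measure how far the sets differ. MHCII-high Control libraries held 11.2, 3.11, 4.80 and 1.36 CPM, above all of cTEC Control (0 to 0.877 CPM), and did not pass (4.24 ± 1.69 SE, adjusted p = 0.153, edgeR). In MHCII-low mTEC the 13 libraries ran from 0 to 15.6 CPM, and Tnnt3 did not pass in Control (adjusted p = 0.168) or in libraries labelled KO (adjusted p = 0.0783).

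Acta1, skeletal alpha-actin, had a low count in nearly every library, cTEC included. In cTEC it ran from 0 to 1.30 CPM (0 to 5 counts), and its share of reads from the windows common with Actb was not tested. The highest values were medullary: 88.3 CPM in MHCII-high replicate 3 labelled KO and 53.3 CPM in MHCII-low replicate 3 labelled KO. The other MHCII-high libraries labelled KO held 3.24, 0.297, 7.41, 20.5, 0.784 and 0.388 CPM, so that 3 of the 7 lay within the cTEC range. Acta1 was higher in MHCII-high mTEC than in cTEC labelled KO (5.08 ± 1.38 SE, adjusted p = 0.0176, edgeR), and without MHCII-high replicate 3 (3.41, adjusted p = 0.0603) or by limma (2.76, adjusted p = 0.0632) the call was lost. Within the early and the late set it was 6.2 and 3.22 (adjusted p = 0.161 and 0.249). MHCII-high Control held 15.3, 5.83, 0.758 and 0.585 CPM and did not pass (4.03, adjusted p = 0.147, edgeR).

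Actc1, cardiac alpha-actin, which early skeletal muscle also makes, ran over the widest range of the set, from no count in 27 of the 40 libraries to 1195 CPM in 1. In MHCII-low Control it was at 353, 38.8, 14.8 and 0 CPM, and in libraries labelled KO at 2.46 and 3.85 CPM in replicates 1 and 5 and at 0 in the other 5. In MHCII-high mTEC it was at 52.1, 48.0, 0.253 and 1.56 CPM in Control and at 262, 20.3 and 117 CPM in replicates 1, 4 and 7 labelled KO, with the other 4 at 0. All 4 Ski flox Control libraries of the medulla were at 0. All 4 MHCII-high Control libraries were above cTEC Control, where no library had a count, at least 253-fold on average, and this did not pass (9.97 ± 3.84 SE, adjusted p = 0.145, edgeR). Against cTEC labelled KO the sign turned on 1 library: with cTEC replicate 3 the log2 fold change of MHCII-high mTEC was -1.57, and without it 11.13 ± 2.99 SE (adjusted p = 0.0271, edgeR). For MHCII-low mTEC the values were -7.54 and 5.17 (adjusted p = 0.219 without it). The other 6 cTEC libraries labelled KO had no count, so 11.13 and 5.17 depend on the prior count and are no bounds.

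**Figure D2:**
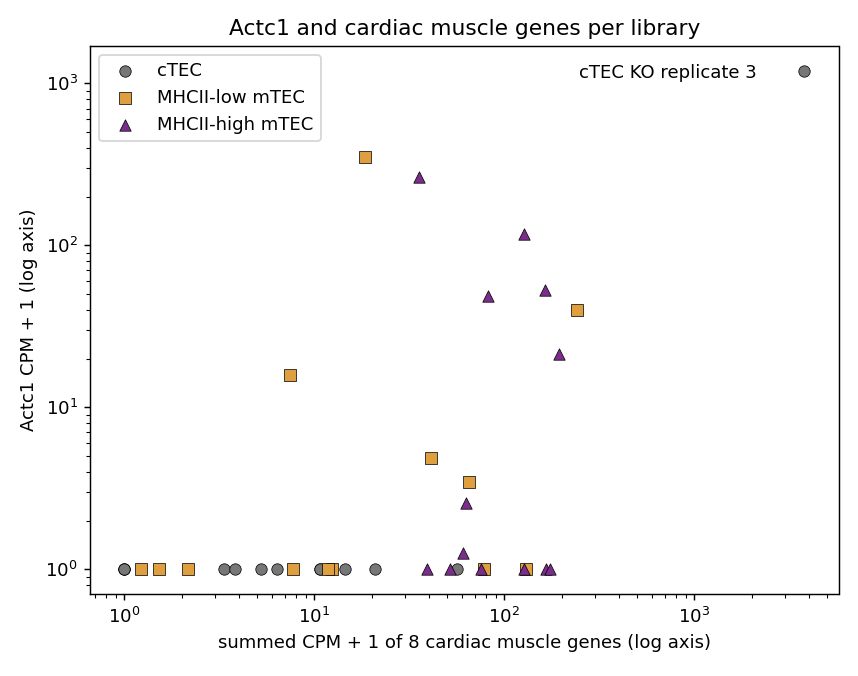
Actc1 CPM + 1 (y axis, log scale) against the summed CPM + 1 of 8 cardiac muscle genes (x axis, log scale) in each of the 40 libraries, 1 point per library, shape and colour by subset. Replicate 3 of cTEC labelled KO is alone at upper right, with Actc1 at 1195 CPM and the cardiac sum at 3799 CPM; the other 13 cTEC libraries have Actc1 at 0 and a sum of 0 to 55.5 CPM.

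Myl1, the fast skeletal essential light chain, was found in 7 of 13 MHCII-high, 3 of 13 MHCII-low and 2 of 14 cTEC libraries. MHCII-high values reached 28.0 CPM (replicate 3 labelled KO) and 21.8 CPM in 1 Ski flox Control library, and Control held 0, 11.1, 4.55 and 0 CPM. In MHCII-low mTEC the highest was 18.6 CPM in replicate 5 labelled KO, the only one of those 7 with a count. Its highest value of all, 147 CPM, was in cTEC replicate 3 labelled KO. With that library the log2 fold change of MHCII-high mTEC against cTEC labelled KO was -1.74, and without it 7.95 (adjusted p = 0.0646, edgeR). Without it cTEC labelled KO had no Myl1 count, so 7.95 is no bound. Des, desmin, the muscle intermediate filament that also marks smooth muscle and pericytes, was in all 13 MHCII-high libraries at 1.94 to 259 CPM with a median of 13.8 CPM, and in 10 of 13 MHCII-low libraries at up to 38.2 CPM. It was not confined to the medulla: cTEC Control replicates 1 and 3 held 25.4 and 19.8 CPM, and cTEC replicates 1 and 3 labelled KO 222 and 240 CPM. Des had log2 fold changes of -1.17 (MHCII-high) and -3.32 (MHCII-low) against cTEC labelled KO, -0.34 and -2.49 without replicate 3, and passed in neither fit.

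Ckm, muscle creatine kinase, which buffers ATP in the working fibre, was low throughout the medulla. MHCII-high mTEC held 9.55, 4.08, 0 and 0 CPM in Control, 2.08 and 10.7 CPM in Ski flox Control, and at most 4.32 CPM in libraries labelled KO, 4 of which were at 0. In MHCII-low mTEC its highest value was 4.53 CPM (Control replicate 4), and the other 12 libraries lay at or under 0.615 CPM. The 35.4 CPM of cTEC replicate 3 labelled KO exceeded every medullary value. The log2 fold change of MHCII-high mTEC against cTEC labelled KO was -2.16 with that library and 3.70 without it (adjusted p = 0.157, edgeR).

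Compared per kilobase of exon, so that genes can be set side by side, the median level over the 13 MHCII-low libraries ran from Myog at 17.7 CPM per kb through Chrna1 at 1.96, Tnnt3 at 1.36, Acta1 at 0.4003 and Des at 0.369 to 0 for the other 4. In MHCII-high mTEC the order was Myog at 6.08 CPM per kb, Chrna1 at 5.54, Tnnt3 at 4.90, Des at 3.69, Acta1 at 0.511, Myl1 at 0.284, Actc1 at 0.156, Ckm at 0.0665 and Myod1 at 0. The ranges of all neighbours in both orders overlapped, so the order is that of the medians and not of separate levels. In cTEC the median was 0 for 8 of the 9, and 0.243 CPM per kb for Acta1. Thinning every library to 3000000 counts changed the number of libraries with a count by at most 2 for any gene and subset, Ckm in cTEC going from 5 to 3.

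No member passed the comparison of MHCII-high with MHCII-low mTEC. Among Control libraries 0 of 9 members and 0.0% of all genes passed (edgeR). At an unadjusted p under 0.05 it was 1 member, Myod1, against 7.47% of all genes, and DESeq2 and limma called 0 members against 0.872% and 0.343%. Among libraries labelled KO 0 of 9 passed against 0.0174% of all genes, 3 had an unadjusted p under 0.05 (Myod1, Tnnt3 and Actc1, all higher in MHCII-high mTEC) against 17.5%, and DESeq2 and limma called 0 against 2.4% and 2.76%. Myog had the lower mean in MHCII-high mTEC in Control (14.0 ± 18.0 against 39.97 ± 13.3 CPM, SD, n = 4 each) and in libraries labelled KO (15.04 ± 18.1 against 38.7 ± 43.6 CPM, n = 7 each). The log2 fold changes were -1.51 ± 1.69 SE and -1.36 ± 1.27, and neither passed. Tnnt3 stood at 2.89 ± 1.31 SE in libraries labelled KO (adjusted p = 0.234, edgeR) and at -0.26 in Control. Actc1 stood at 5.97 ± 2.45 in libraries labelled KO (adjusted p = 0.191).

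The comparison of KO with Control asks whether loss of Ski moves these genes, and none of the 9 passed it in any subset. In cTEC 0 of 9 members and 0.0% of all genes passed (edgeR). At an unadjusted p under 0.05 there were 2 members, Ckm and Actc1, against 10.6% of all genes, DESeq2 called 1 (Actc1) against 2.26%, and limma called 0 against 0.0434%. The Actc1 value is that of 1 library: cTEC Control had no count, replicate 3 labelled KO had 5206 counts and the other 6 had 0, which is at least 1694-fold higher on average (12.7 ± 4.01 SE, adjusted p = 0.329, edgeR; adjusted p = 1.09e-09 in DESeq2). Without replicate 3 Actc1 was at 0 in both groups, Ckm moved from a log2 fold change of 4.87 to -0.99, and Myl1 from 3.79 to -5.9 (adjusted p = 0.449, edgeR). Myl1 then had no count in cTEC labelled KO, so -5.9 is no bound. Des stood at 2.87 (66.5 ± 113 against 9.05 ± 12.6 CPM) and at 2.04 without replicate 3.

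In MHCII-low mTEC 0 of 9 members and 0.0% of all genes differed between libraries labelled KO and Control (edgeR). With an unadjusted p under 0.05 there was 1 member, Actc1, lower in those labelled KO, against 7.11% of all genes, and DESeq2 and limma called 0 members against 0.994% and 0.0477%. Myog was at 38.7 ± 43.6 CPM (SD, n = 7) against 39.97 ± 13.3 (n = 4), a log2 fold change of -0.05 ± 1.47 SE. With a standard error of that size the fit does not show that the levels are alike. Chrna1 stood at 1.18 ± 1.45 SE (33.3 ± 41.4 against 14.7 ± 12.2 CPM) and Tnnt3 at -0.69 ± 1.41. Actc1 averaged 0.902 ± 1.59 CPM in libraries labelled KO and 102 ± 168 in Control (-6.8 ± 2.61 SE, adjusted p = 0.639, edgeR), with 5 libraries labelled KO and 1 Control library at 0. The 2 Ski flox Control libraries held Myog at 1.09 and 0 CPM, both below all 4 Control libraries, a difference that was not tested.

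In MHCII-high mTEC 0 of 9 members and 0.0% of all genes passed (edgeR). At an unadjusted p under 0.05 there were 0 members against 6.88% of all genes, and DESeq2 and limma also called 0, against 0.634% and 0.0608%. Myog stood at 0.11 ± 1.47 SE, Chrna1 at 0.48 ± 1.40 and Actc1 at 1.16 ± 2.38. Tnnt3 averaged 28.45 ± 26.99 CPM in libraries labelled KO (n = 7) against 5.12 ± 4.29 in Control (n = 4), a log2 fold change of 2.47 ± 1.61 SE (adjusted p = 0.976, edgeR). It was 2.65 within the early set and 0.38 within the late set. The median log2 fold change of the 9 was 2.29 in cTEC (0.75 with the genes that a group lacked at their least fold, and 0.22 without cTEC replicate 3), -0.05 in MHCII-low and 0.48 in MHCII-high mTEC, beside 0.0, 0.0 and -0.04 over all genes. No member passed in 3 tests of the difference in KO effect between subsets, in each of which 0.0% of all genes passed (edgeR). DESeq2 called Actc1 in the 2 tests against cTEC, where cTEC replicate 3 enters.

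**Figure D3:**
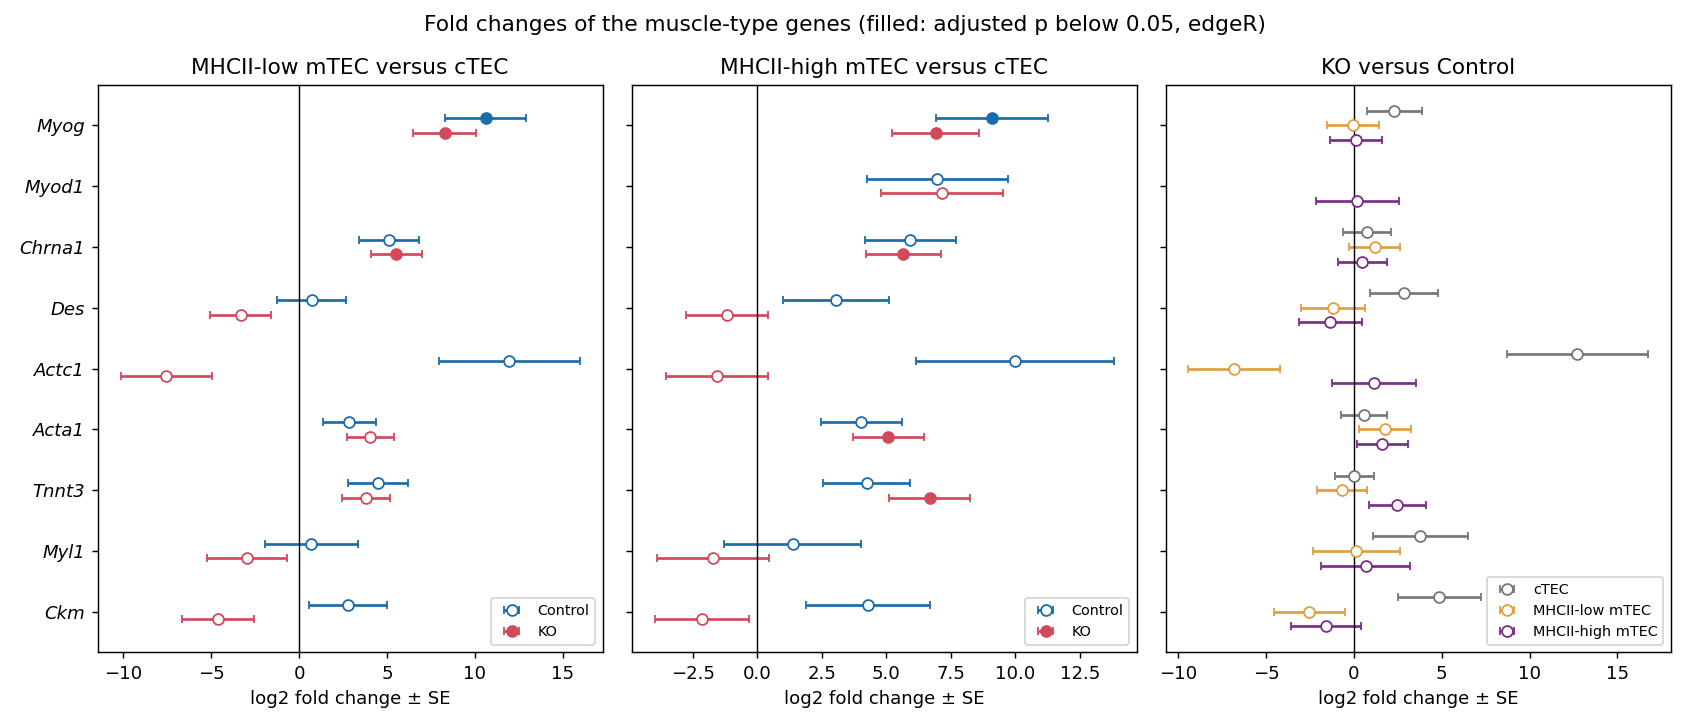
Log2 fold change (x axis) of each of the 9 genes with its standard error, for MHCII-low mTEC against cTEC (left), MHCII-high mTEC against cTEC (middle) and KO against Control (right), coloured by genotype or subset. Filled points passed an adjusted p of 0.05 in edgeR, which are Myog and, in libraries labelled KO, Chrna1, Tnnt3 and Acta1, and no point on the right is filled.

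Several members were often in 1 library together. The number of the 9 genes with at least 10 counts was 0 to 4 in cTEC (median 0.5), 0 to 7 in MHCII-low (median 3) and 3 to 9 in MHCII-high mTEC (median 6). The number of genes detected moved with it, at medians of 14436.5, 16993 and 19040, and its part in the result was not tested. All 19 medullary libraries with at least 10 counts of Myog also held as many of Chrna1, which had them in 24 of 26. Myog was found together with Des in 14 libraries, with Tnnt3 in 13, with Actc1 and Myl1 in 7 each, with Acta1 in 6 and with Ckm in 5. On their own, Des reached 10 counts in 19 of the 26 libraries, Tnnt3 in 18, Actc1, Myl1 and Acta1 in 9 each and Ckm in 7. Whether any pair was found together more often than these numbers alone give was not tested.

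Over the 13 MHCII-low libraries Myog and Chrna1 levels, as log2(CPM + 1), had r = 0.72 (permutation p = 0.00564) and rho = 0.62 (permutation p = 0.0268). Over 43 pairs of genes tested within the 2 medullary subsets their adjusted values were 0.123 and 0.384, so the relation did not pass. It was 0.77 within the early set, 0.68 within the late set and 0.68 without the 2 libraries farthest from the median of Myog. In MHCII-high mTEC the same pair had r = -0.35. Myog and Tnnt3 in MHCII-high mTEC ran the other way (r = -0.74, permutation p = 0.0057, and rho = -0.70, permutation p = 0.01, adjusted 0.123 and 0.367). Within the early and the late set r was -0.47 and -0.57, and without the 2 farthest libraries -0.62. None of the 43 pairs passed adjustment.

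**Figure D4:**
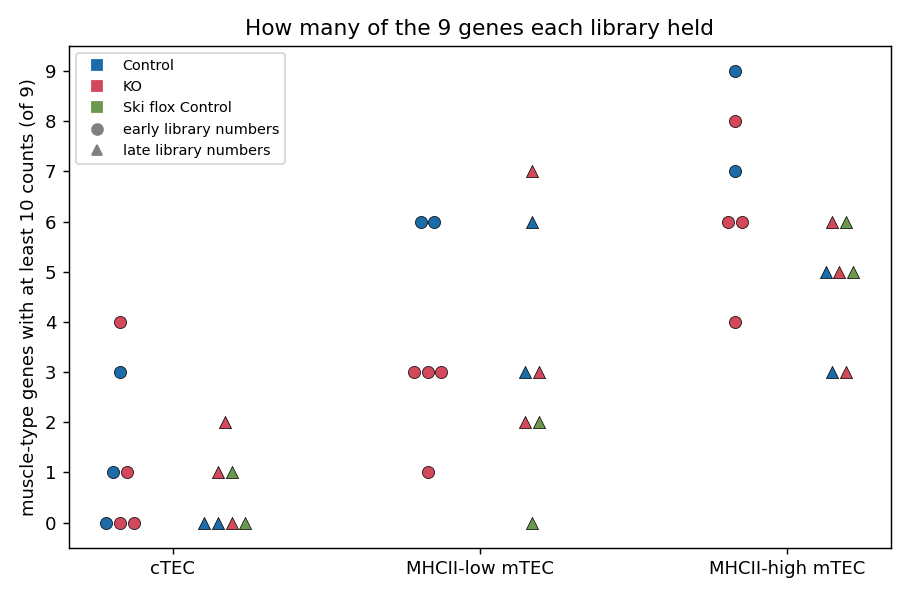
Number of the 9 genes with at least 10 counts (y axis) in each library, by subset (x axis), 1 point per library with colour for genotype and shape for the early (left) and late (right) library numbers. Most cTEC libraries hold 0 or 1 (median 0.5, highest 4), and MHCII-high mTEC libraries hold 3 to 9 with a median of 6.

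In MHCII-high mTEC the levels of several members ran apart between the early and the late set. At least 10 counts of Myog were found in 2 of 6 early and 7 of 7 late libraries, and its mean was 4.27 CPM early and 22.4 CPM late. Tnnt3 averaged 33.7 CPM early and 5.82 late, Des 76.7 and 8.51, Actc1 63.8 and 16.98 and Acta1 20.1 and 3.40 CPM. The median number of genes detected was 16860.5 early and 20050 late. In MHCII-low mTEC Myog was found in 5 of 6 early and 5 of 7 late libraries. These splits were not tested, and genotype, set and whatever else changed with the library number cannot be told apart within Ski flox Control, whose libraries are all in the late set.

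Other muscle genes were read from lists, in the comparison of MHCII-high mTEC with cTEC labelled KO, in which 12.9% of all genes were higher. Of 10 myogenic transcription factors tested 2 were higher and 0 lower, with a median log2 fold change of 1.49, beside 0.28 over all genes. Pax7, the factor of muscle stem cells, held 19.99 ± 23.8 CPM in MHCII-high mTEC, with counts in 5 of 7 libraries, and 0 in cTEC (at least 230-fold higher, adjusted p = 0.00596, edgeR).

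Of the 10 genes of the acetylcholine receptor and the neuromuscular synapse 1 was higher and 1 lower. Lrp4, the agrin receptor of the synapse, was at 13.3 ± 7.34 against 0.263 ± 0.311 CPM (5.56 ± 0.97 SE, adjusted p = 0.000618, edgeR), above every cTEC library in all 7. It also passed in MHCII-low mTEC labelled KO (5.02, adjusted p = 0.00204) and in MHCII-high Control (4.29, adjusted p = 0.0428). Rapsn, which clusters the receptor, was at 0 in MHCII-high mTEC and at 3.69 ± 7.17 CPM in 2 of 7 cTEC libraries (at least 39.8-fold lower, adjusted p = 0.047), a call lost when any 1 of the 14 libraries was left out. Of 5 genes of myoblast fusion 2 were higher: Mymk, the fusogen myomaker, at 11.2 ± 17.7 CPM in 3 of 7 libraries, and Mymx, myomixer, at 7.10 ± 8.82 CPM in 5 of 7, both at 0 in cTEC (at least 129-fold and 81.8-fold higher, adjusted p = 0.029 and 0.0212).

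Among 11 thin filament genes tested 1 was higher and 1 lower (median -0.52), and without cTEC replicate 3 it was 2 and 0 of 9 tested (median 1.04). Tpm2, beta-tropomyosin, was at 117 ± 44.6 against 30.5 ± 26.2 CPM (1.94, adjusted p = 0.0359, edgeR), a call lost without MHCII-high replicate 3 or any of cTEC replicates 4 to 7. Tpm2 passed in the other comparisons with cTEC as well (log2 fold changes of 3.29 and 3.33 in MHCII-low and MHCII-high Control and of 2.49 in MHCII-low mTEC labelled KO). Tnni3, the cardiac inhibitory troponin, was lower (-5.16, adjusted p = 0.0364) and stood at 0.46 without cTEC replicate 3, which held 1366 CPM.

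Of 13 myosin and thick filament genes tested 5 were higher and 1 lower (median 6.13, or 5.36 with the genes that a group lacked at their least fold; without cTEC replicate 3, 4 higher and 0 lower). Myl2, the slow and ventricular light chain, was at least 224-fold higher (4 of 7 libraries, adjusted p = 0.02, edgeR). Myh3, the embryonic heavy chain, was at least 94.8-fold higher (2 of 7, adjusted p = 0.0237), and Mybph, a myosin-binding protein, at least 45.4-fold higher (4 of 7, adjusted p = 0.0129). Myom2, an M-band protein, was lower (adjusted p = 0.0199) with all of its counts in cTEC replicate 3 at 162 CPM. Of 10 Z-disc and titin partners 4 were higher and 2 lower (median -1.2, and 6.5 without cTEC replicate 3). Myot, myotilin, was at 52.8 ± 41.2 against 0.590 ± 1.56 CPM (6.45, adjusted p = 0.0292), a call lost without cTEC replicate 4, 6 or 7, and was at least 560-fold higher in MHCII-high Control (adjusted p = 0.0478). Myoz1 was at least 45.6-fold higher (3 of 7, adjusted p = 0.036), Synm, synemin, was lower (1.72 ± 3.11 against 61.3 ± 61.4 CPM, -5.12, adjusted p = 0.0155), and Actn2 was lower with all of its counts in cTEC replicate 3.

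Of 11 genes of excitation-contraction coupling 4 were higher and 0 lower (median 3.86, or 1.99 with the genes that a group lacked at their least fold), and 2 were higher without cTEC replicate 3. Trdn, triadin, the anchor of the calcium release complex, was at 23.0 ± 12.6 CPM in all 7 MHCII-high libraries and at 0 in all 7 of cTEC (at least 265-fold higher, adjusted p = 0.00176, edgeR). It also passed in MHCII-low mTEC labelled KO (at least 50.6-fold higher, adjusted p = 0.0114). Casq2, a calcium store protein, was at least 141-fold higher in 4 of 7 libraries (adjusted p = 0.016). Cacna1s, the voltage sensor, and Jph1, junctophilin, passed at adjusted p = 0.0453 and 0.0388, and each call was lost without any of several single libraries. Of 7 genes of muscle energy metabolism, to which Ckm is closest, 0 passed (median -2.09), and without cTEC replicate 3 it was 1 higher and 0 lower (median 0.0). The 2 most abundant were Eno3, muscle enolase, at 213 ± 63.8 against 351 ± 199 CPM, and Mb, myoglobin, at 14.3 ± 19.8 against 196 ± 517 CPM, the latter from 1368 CPM in cTEC replicate 3. In the other comparisons with cTEC at most 2 genes of any of these 8 muscle lists were higher.

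Genes of other cells that also make members were present in the same libraries. Smooth muscle and pericytes carry Des, and 4 of 10 of their genes tested were higher in MHCII-high mTEC than in cTEC labelled KO: Cnn1, Rgs5, Acta2 and Myh11. The summed level of the 11 genes of that list was 150 to 1513 CPM in MHCII-high mTEC, 22.0 to 888 in MHCII-low mTEC and 5.98 to 184 in cTEC, and its part in the level of Des was not tested. Cardiac muscle carries Actc1 and Des: the sum of its 8 genes was 34.6 to 192 CPM in MHCII-high mTEC, 0.218 to 239 in MHCII-low mTEC, and 3799 in cTEC replicate 3 labelled KO against 0 to 55.5 in the other cTEC libraries. In that replicate 7 of 12 thin filament genes, 8 of 11 Z-disc genes and 5 of 7 energy genes also lay above all other cTEC libraries, among them Tnnt2 at 2061 CPM and Csrp3 at 538 CPM, but 0 of 11 myogenic transcription factors and 0 of 11 smooth muscle genes did. The share over all genes was not counted. Fibroblast genes ran the other way: 0 of 8 were higher and 3 lower (Dpt, Lum and Col3a1) in MHCII-high mTEC than in cTEC labelled KO, with sums of 26.02 to 205.8 CPM in MHCII-high mTEC and 8.31 to 6379 CPM in cTEC. Of 7 endothelial genes 0 were higher and 2 lower (Esam and Cldn5), and of 8 myeloid genes 1, Lyz2, was higher (1502 ± 534 against 228 ± 176 CPM). The part of these cells in the levels of the members was not tested. In cTEC replicate 3 the 8 cTEC markers were present and none was above the other libraries, with Psmb11 at 608 CPM and Prss16 at 1775 CPM.

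Aire, at 729 ± 390 against 38.4 ± 43.3 CPM, and Fezf2, another regulator of tissue-restricted antigens, at 473 ± 106 against 27.01 ± 34.7 CPM, were higher in MHCII-high mTEC than in cTEC labelled KO (4.25 with adjusted p = 0.0164, and 4.13 with adjusted p = 0.0155, edgeR). Of 10 such regulators tested 3 were higher, Sirt1 being the other. Genes of other tissue-like medullary cells were also higher in that comparison: 7 of 10 keratinocyte genes, with Spink5, Dsg1a, Flg and Ivl, 7 of 11 enterocyte and hepatocyte genes, with Fabp2, Apoa4, Hnf4g and Ttr, and 3 of 9 neuroendocrine genes, Snap25, Chga and Scg5. The difference between these counts and the 4 of 9 of the muscle-like genes was not tested.

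Likeness to other genes across libraries was computed for Myog, Chrna1 and Ckm. Over the 26 medullary libraries and 14648 genes with a count in at least 10 of them, the genes whose log2(CPM + 1) was most like Myog by Spearman's rho were Tek (0.777), Nefl (0.762), Tspan8 (0.756), Lrrc6 (0.745) and Kdm4a (0.734). For Chrna1 they were Acat3 (0.699), Tmem238l (0.644), Hltf (0.641), Cfap45 (0.629) and Nudt12 (0.618). For Ckm they were Pank1 (0.749), Slc35f2 (0.705), Mybpc1 (0.693), a slow muscle myosin-binding protein, Gnl3 (0.679) and Shroom1 (0.662). The best rank that any other member took in these 3 orders was 1280, Actc1 for Ckm at 0.338. The 26 libraries share their depth and the split by library number, and picking the highest of 14648 values gives high rho by itself, so these are descriptions only.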

How the data were processed

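RNA of 200 sorted cells per library was made into SMART-Seq v4 cDNA and Nextera XT libraries, per the labels' protocols, a chemistry without strand marks or molecular identifiers. The table deposited by the authors holds whole-number read counts for Ensembl genes with no normalisation. The build GRCm38 and the tools SAMtools 1.2, HTSeq 0.4.1, FastQC 0.11.3 and Picard 1.134 are named in the submitters' processing notes. No aligner, annotation release or strand setting is named in the sources used here. Of 53465 identifiers 53274 matched GENCODE M21.

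Libraries were grouped by the subset and genotype in their labels, and replicate numbers within a group only name libraries. Both libraries under 100000 counts were left out. edgeR 4.0.16 (R 4.3.3) fitted 40 libraries in 9 groups, each with its own mean, in 1 quasi-likelihood model (TMM, filterByExpr with a minimum count of 10 and a minimum total of 15), with a biological coefficient of variation of 1.40, and p-values were adjusted by Benjamini-Hochberg over 23040 genes at 0.05. Standard errors come from the F statistic. DESeq2 1.42.0, limma 3.58.1 (voom) and other filters, scalings and sample choices were alternatives. A least fold places a group without counts at 3 counts over its summed library sizes, which covers counting error only. Correlations used 100000 permutations on log2(CPM + 1) in SciPy 1.17.1. The edgeR fit was also run on simulated data, with changes planted only in genes above a set mean level. Most members lay below that level, so the run does not speak to genes like them.

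The members and gene lists were chosen with earlier results of these data known. All 9 members and Ski were always named. From each list up to 4 genes past the threshold with the largest fold change were named, or the 2 most abundant where none passed, and for Myog, Chrna1 and Ckm the 5 genes of highest Spearman's rho. One gene that the rule gave is not reported here. Libraries and genes singled out beyond this, such as the cardiac genes of 1 cTEC library, were chosen after their values were seen.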

Additional observations from a re-analysis of the deposited data

Results flagged for a closer look

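In 14 of 54 sets of libraries (9 genes in 6 groups of 4 to 7), 1 library lay farther from the others than Dixon's 95% limit on log2(CPM + 1). The limit's rate of about 1 in 20 holds for normally spread values and not for sets mostly at 0. Sets with every library at 0 are among the 54 and could not be flagged, so the 14 have no expected number to be set against. In cTEC labelled KO, 6 of the 7 libraries had Actc1 at 0 and replicate 3 had 1195 CPM. The same replicate held Myl1 at 147.3 CPM and Ckm at 35.35 CPM. Replicate 5 of that group stood apart at lower levels, with Chrna1 at 4.16 CPM, Acta1 at 1.3 CPM and Myog at 0.78 CPM, and replicate 7 did so for Tnnt3 at 1.674 CPM. In cTEC Control, replicate 3 was high for Myl1 at 7.433 CPM and Chrna1 at 1.79 CPM, and replicate 2 for Ckm at 0.7311 CPM. In MHCII-low mTEC the libraries were Control replicate 3 for Acta1 at 8.126 CPM, Control replicate 4 for Ckm at 4.534 CPM, replicate 3 labelled KO for Acta1 at 53.31 CPM, and replicate 5 labelled KO for Myl1 at 18.6 CPM. No set of MHCII-high libraries had such a library. In groups where most libraries are at 0, a single library with a few counts is enough to pass this limit, as with Myog, which had 3 counts there.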

How the results depend on the processing

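No paired analysis was possible because the labels give no replicate numbers and tie no library to an animal, and the order of library numbers was not used to pair them. The call counts of all genes depend strongly on the tool and on which libraries enter. Under settings other than leaving out 1 library, 178 counts stayed within 1.5 times the value reported and 65 did not, and with 1 library left out these numbers were 162 and 42.

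For KO against Control in cTEC, where edgeR called 0 genes, no count filter and a filter of 10 CPM in 5 libraries gave 2 each, limma 10 and DESeq2 520, with 1 member (Actc1) in DESeq2. In MHCII-low mTEC DESeq2 gave 229, limma 11 and the late set 5, and in MHCII-high mTEC DESeq2 gave 146, limma 14 and the early set 1. With 1 library left out the counts were 0 to 4 in cTEC and 0 in both medullary subsets, with 0 members.

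For MHCII-low mTEC against cTEC in Control, 178 genes were called. The 10 CPM filter gave 355, DESeq2 1521, limma 1038, both control genotypes pooled 842, the library-number set as a covariate 271, the early set 1, the late set 710 and all 42 libraries 100, and with 1 library left out 42 to 215. Members went from 1 to 4 in DESeq2 (Myog, Chrna1, Actc1 and Tnnt3), 3 in limma (Myog, Chrna1 and Actc1), 2 with pooled controls and 0 in the early set, and were 0 to 1 with 1 library left out. For MHCII-high mTEC in Control, 256 genes were called. The 10 CPM filter gave 466, DESeq2 1713, limma 1954, only the groups compared 495, pooled controls 1995, the covariate 612, the early set 4 and the late set 143, and with 1 library left out 69 to 224. Members went from 1 to 5 in DESeq2 (Myog, Chrna1, Actc1, Acta1 and Tnnt3), 3 in limma (Myog, Chrna1 and Tnnt3), 2 with pooled controls and 0 in the early set, in the late set and with only the groups compared, whose filter left 2 of 9 in the test without Myog, and were 0 to 1 with 1 library left out.

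For MHCII-low mTEC against cTEC labelled KO, 1308 genes were called. DESeq2 gave 2327, only the groups compared 52, the early set 38 and the late set 355, and with 1 library left out 683 to 1568. Members went from 2 to 4 in DESeq2, to 0 in the early set, to 0 with only the groups compared, whose filter left 1 of 9 (Chrna1) in the test, and to 1 in the late set, and were 2 to 3 with 1 library left out. For MHCII-high mTEC labelled KO, 3385 genes were called. The 10 CPM filter gave 1732, only the groups compared 442, the early set 206 and the late set 557, and with 1 library left out 1960 to 3198. Members went from 4 to 0 with only the groups compared, whose filter left 2 of 9 (Chrna1 and Des) in the test, and to 1 in each set, and were 3 to 5 with 1 library left out.

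Between MHCII-high and MHCII-low mTEC in Control, where edgeR called 0 genes, DESeq2 gave 201, limma 79 and the late set 113, and with 1 library left out 0. In libraries labelled KO, 4 genes were called, and DESeq2 gave 552, limma 635, only the groups compared 1, the covariate 21, the early set 1, the late set 227, all 42 libraries 1 and 41 libraries 2, and with 1 library left out 2 to 11, with 0 members. The difference of the KO effect between subsets was also fitted in DESeq2, a setting added after the data were seen. DESeq2 called 1 member (Actc1) in the comparison of MHCII-low mTEC with cTEC and 1 in that of MHCII-high mTEC with cTEC. No fit with 1 library left out was made for these differences.

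Log2 fold changes near 0 changed sign. Myog for KO against Control in MHCII-low mTEC (-0.05) was 0.01 with RLE factors and in DESeq2, 0.52 with pooled controls, 0.36 with the covariate, 0.55 in the early set, 0.22 with all 42 libraries and -0.69 to 0.18 with 1 library left out. In MHCII-high mTEC Myog (0.11) was -1.18 in limma and -0.6 to 1.53 with 1 left out. Chrna1 there (0.48) was -0.21 in limma, -0.69 in the late set and -0.27 to 1.28 with 1 left out, lowest without replicate 2 labelled KO. Actc1 there (1.16) was -1.64 in limma and -0.15 to 1.78 with 1 left out, lowest without replicate 1 labelled KO. Tnnt3 between MHCII-high and MHCII-low Control (-0.26) was 0.01 in limma, 0.83 with pooled controls and -0.99 to 0.36 with 1 left out. Against cTEC labelled KO, Tnni3 in MHCII-high mTEC (-5.16) was 0.42 in DESeq2 and -5.4 to 0.46 with 1 left out, and Myh6 (-7.11) was 5.79 in DESeq2, 0.07 in limma and -9.08 to 6.2 with 1 left out, both highest without cTEC replicate 3. Without that replicate cTEC labelled KO had no Myh6 count, so 6.2 is no bound. Apart from that replicate, the cause of these changes was not tested. At 3217251 counts or more per library, a gene carried by 1 or a few of 200 cells can be missed, and the depth cannot tell this from absence.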
